A study of Mus musculus with 46 samples.

Results

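Transforming growth factor beta (TGF-beta) signaling was followed at the RNA level in MC-38 tumors through 9 genes of the 48795 in the expression table. The genes were chosen by name, for their roles in the pathway, with earlier results of these data known. They are the ligands Tgfb1, Tgfb2 and Tgfb3, the receptors Tgfbr1, Tgfbr2 and Tgfbr3, and the targets Smad7, Skil and Tgfbi, and each had 1 row in the table. RNA-seq covered 46 bulk samples of the mouse colon carcinoma line MC-38, of which 3 were cultures and 43 were subcutaneous tumors in female C57BL/6NTac mice of 8 to 10 weeks. The antibody study, in WT mice, held 3 tumors taken at baseline, 10 taken at day 4 after 1 dose and 10 taken at day 8 after 2 doses, and at each of these days 5 tumors had received PD-1 Ab (muDX400, 5 mg/kg) and 5 an isotype control antibody. Days 4 and 8 count from the first dose, given at day 7 after implant. In the tamoxifen study, 10 tumors were labelled PD-1cKO and 10 came from WT littermates, all at day 28 by the labels, and both groups had received tamoxifen at 40 mg/kg on 5 consecutive days. Day 28 counts from implant in the paper, whose methods give day 22 for PD-1cKO tumors. PD-1cKO mice carry Pdcd1 alleles with loxP sites around exons 2 and 3 and a tamoxifen-inducible Cre expressed from the Rosa26 locus, a locus active in most cell types, so that the deletion is not limited to T cells and does not reach the injected MC-38 cells. Nothing in the labels ties a replicate to a separate culture, so p-values against the cultures may measure technical spread only.

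TGF-beta ligands are secreted in a latent complex that stays bound in the matrix or on a cell surface until integrins or proteases release the active dimer. The active ligand binds the type II receptor (Tgfbr2), which phosphorylates the type I receptor (Tgfbr1), and Tgfbr1 in turn phosphorylates Smad2 and Smad3, which enter the nucleus with Smad4. Betaglycan (Tgfbr3) presents ligand, TGF-beta 2 above all, to the signaling receptors. In tumors the pathway is known for restraining T cells and for driving matrix production by fibroblasts.

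Values are FPKM as deposited, read fragments normalized to the length of the transcript and the total of the library. Differences are log2 fold changes of FPKM + 0.1, fitted with limma, with p-values adjusted by Benjamini-Hochberg over all genes tested in the comparison, and a gene was called at an adjusted p under 0.01. The depth of each library is unknown, and precision rests on the spread between samples. The share of all genes whose groups did not overlap was not counted in any comparison. Separate groups are therefore given only as a description of a gene's values. FPKM levels of the antibody and the tamoxifen study cannot be set side by side as deposited, since short noncoding RNAs held 30.2% to 66.5% of the FPKM in the tamoxifen study and at most 0.0746% in the antibody study. Isotype control replicate 1 at day 4 stood apart, with 54.6% of its FPKM in mitochondrial genes against 3.45% to 4.31% in the other 4 tumors of its group. Pdcd1, the targeted gene, was higher in tumors labelled PD-1cKO (range 5.05 to 19.95 FPKM) than in WT tumors (1.71 to 7.02), and a value over the whole gene does not separate exons 2 and 3, so the deletion is not checked by these values. The carcinoma markers Epcam, Krt8, Krt18, Cdh1 and Cldn7 summed to 0.616 to 0.742 FPKM in the 3 cultures, near 0 for a line labelled colon carcinoma.

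The 3 genes on which the results turn most are shown by the sequence before their start, since Smad proteins bind DNA at the short motif CAGAC. Each is written 5′ to 3′ on the gene's strand, in lower case, with CAGAC and its reverse complement GTCTG in capitals. The Tgfbi window (GRCm38.p6, chr13:56609336-56609522, plus strand) ends where the annotated gene begins, and those of Tgfbr2 (chr9:116175364-116175613, minus strand) and Tgfb2 (chr1:186705990-186706239, minus strand) are 250 bases.

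Tgfbi: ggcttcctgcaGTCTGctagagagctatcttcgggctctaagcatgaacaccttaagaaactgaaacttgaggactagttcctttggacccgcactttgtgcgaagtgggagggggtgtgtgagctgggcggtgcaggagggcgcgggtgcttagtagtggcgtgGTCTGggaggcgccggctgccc
Tgfbr2: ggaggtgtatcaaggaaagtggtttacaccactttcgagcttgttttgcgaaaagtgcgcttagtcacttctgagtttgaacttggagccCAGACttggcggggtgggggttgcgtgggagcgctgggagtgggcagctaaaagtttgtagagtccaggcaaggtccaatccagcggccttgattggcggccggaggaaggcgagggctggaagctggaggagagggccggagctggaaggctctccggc
Tgfb2: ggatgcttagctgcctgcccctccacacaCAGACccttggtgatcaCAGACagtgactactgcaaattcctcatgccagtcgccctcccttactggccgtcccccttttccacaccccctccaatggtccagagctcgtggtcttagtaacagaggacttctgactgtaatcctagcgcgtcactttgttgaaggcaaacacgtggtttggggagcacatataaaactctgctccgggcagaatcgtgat

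Tgfbi and Tgfb2 each held 2 matches and Tgfbr2 held 1. Of 32851 RefSeq promoters, 34.2% held a match on either strand in a window of 187 bases and 42.2% in one of 250 bases, so a match is common. RefSeq promoters matched 5 of the 9 genes. Over the whole promoter entry, which is longer than the windows shown, Tgfb1 held 0 matches and the entries of Tgfbr1 held 0 and 1.

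The first question was how tumors differ from the cultured line they grew from. Tgfbi, which encodes a secreted matrix protein named for its induction by TGF-beta, showed the largest difference of the 9 genes. Its FPKM was 29.8, 31.2 and 27.1 in the 3 cultures and 289, 312 and 291 in the 3 baseline tumors, so every tumor was far above every culture. Baseline tumors were 10.1-fold above culture (log2 fold change 3.34, SE 0.07, adjusted p by limma 8.955e-08). Isotype control tumors of day 8 ranged from 269.5 to 299.9 FPKM, 9.59-fold above culture (3.26, SE 0.08, adjusted p by limma 2.091e-09).

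Of the ligands, Tgfb1 and Tgfb2 were higher in tumors than in culture and Tgfb3 was not called as different. Tgfb1, the isoform that dominates in immune cells and platelets, was at 20.6 FPKM ± 0.16 in culture (SD, n = 3), 43.2 ± 3.91 in baseline tumors (n = 3) and 52.8 ± 6.77 in isotype control tumors of day 8 (n = 5). No culture overlapped either tumor group. The log2 fold change was 1.06 (SE 0.07, adjusted p by limma 2.037e-05) for baseline tumors and 1.34 (SE 0.11, adjusted p 9.917e-06) for isotype control tumors. Tgfb2 was at 4.32 FPKM ± 0.30 in culture, and its 3 baseline tumors held 9.74, 11.7 and 21.1 FPKM (log2 fold change 1.61, SE 0.26, adjusted p by limma 0.001295). In the isotype control tumors Tgfb2 held 9.02, 15.0, 6.24, 10.7 and 9.65 FPKM (1.16, SE 0.24, adjusted p 0.003065), again above every culture. This Tgfb2 call was lost when any 1 culture was left out (1.10 to 1.19, adjusted p by limma 0.01189 to 0.01737). Tgfb3 was at 18.6 FPKM ± 0.65 in culture and 20.3 ± 3.81 in baseline tumors, and its interval of the log2 difference ran from -0.18 to 0.40.

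The receptors behaved unlike each other against culture. Tgfbr1 was at 5.34, 5.14 and 5.89 FPKM in culture and at 15.1, 14.4 and 13.1 in baseline tumors (log2 fold change 1.36, SE 0.09, adjusted p by limma 1.682e-05). Against isotype control tumors Tgfbr1 missed the threshold (1.17, SE 0.31, adjusted p 0.01129), where tumor 3 held 6.12 FPKM and the other 4 held 11.0 to 17.7. Tgfbr3 was lower in baseline tumors (3.96, 4.33 and 5.30 FPKM) than in culture (7.98, 7.90 and 7.15), at a log2 fold change of -0.76 (SE 0.12, adjusted p 0.001466), which missed the threshold without culture 1 (adjusted p 0.01032) or culture 2 (0.01002). In isotype control tumors Tgfbr3 overlapped culture, with 4.67 to 7.72 FPKM and a log2 fold change of -0.20 (SE 0.18). Tgfbr2 was at 15.4 FPKM ± 0.76 in culture and 20.1 ± 3.77 in baseline tumors and was not called in either comparison.

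The intracellular feedback targets differed less than Tgfbi. Smad7, an inhibitory Smad that the pathway induces against its own receptors, was at 10.7 FPKM ± 0.26 in culture and 16.3 ± 0.53 in isotype control tumors (log2 fold change 0.59, SE 0.07, adjusted p by limma 0.000152), and in baseline tumors it was at 12.3 ± 1.92 and not called (adjusted p 0.2267, and 0.009204 without baseline tumor 1). Skil, which encodes the Smad co-repressor SnoN, was at 8.98 FPKM ± 0.73 in culture, 10.8 ± 0.25 in baseline tumors and 12.5 ± 3.11 in isotype control tumors, and was not called. In all, 4 of the 9 genes were called as higher in baseline tumors and 1 as lower, against 20.8% and 18.3% of the 15217 genes tested (39.1% in either direction). In isotype control tumors 4 of 9 were called, all as higher, against 20.2% higher and 16.8% lower of 15199 genes (37.0% in either direction). With a 2-fold limit as well, 4 were higher in baseline tumors (12.1% of all genes) and 3 in isotype control tumors (14.2%). Without isotype control tumor 3, 7 of 9 were called, among them Tgfbr1 (1.42), Tgfbr2 (0.75) and Skil (0.58), and the share of all genes called in that fit was not counted. Both comparisons use the same 3 cultures.

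Other genes of the pathway were taken from 3 lists. Of all genes tested, 20.2% were called as higher and 16.8% as lower in isotype control tumors, and 20.8% and 18.3% in baseline tumors. Of 12 further target genes, 11 were called as higher in isotype control tumors than in culture and 11 in baseline tumors, with none lower, and the median log2 fold change was 1.71 and 1.62 (median of all genes -0.11 and -0.04). The 3 with the largest differences were matrix or contractile genes. Acta2, smooth muscle actin, was at 0.0938 FPKM ± 0.049 in culture and 42.1 ± 7.14 in isotype control tumors. Col1a1, a chain of type I collagen, was at 6.24 FPKM ± 0.76 in culture and 445.5 ± 113 in those tumors, and Postn, periostin, at 12.6 ± 0.43 and 319 ± 151. Of 10 tested genes for ligand storage and activation, 5 were higher and 2 lower in isotype control tumors, led by Nrros, which tethers latent TGF-beta on macrophages and microglia (0.115 FPKM ± 0.032 in culture, 12.3 ± 1.58 in tumors), Lrrc32, which does so on regulatory T cells and platelets (0.18 ± 0.041 and 1.88 ± 0.42), and Ltbp2, a latent TGF-beta binding protein of the matrix (0.818 ± 0.044 and 2.57 ± 0.61). Of 13 co-receptor and signaling genes, 2 were higher and 2 lower, neither above its share of all genes. Acvrl1, an endothelial type I receptor, rose from 0.0642 FPKM ± 0.041 to 8.81 ± 1.34, its partner Eng from 0.324 ± 0.040 to 11.8 ± 1.29, and the decoy receptor Bambi fell from 4.11 ± 0.24 to 1.995 ± 0.42. Baseline tumors had 6 higher and 1 lower among the storage genes and 4 and 2 among the signaling genes.

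Markers of several host cell types were higher in tumors as well, beside 20.2% of all genes called as higher in isotype control tumors. Of the keratinocyte list Krt14 was called as higher and Krt10 as lower in these tumors, and no skeletal muscle marker was called. All 6 macrophage markers, all 6 CD8 T cell markers and 4 of the 4 endothelial markers tested (of 5) were called as higher in isotype control tumors than in culture. Macrophage markers summed to 2.56 to 3.14 FPKM in culture, with Adgre1 at 0 in each, and to 605 to 964 in isotype control tumors. CD8 T cell markers summed to at most 0.0183 FPKM in culture and to 7.30 to 21.5 in those tumors. Fibroblast markers summed to 102.6 to 106.1 FPKM in culture and 471 to 1136 in those tumors, with 5 of 6 called as higher, so the cultured line itself expresses genes of that list. The part of these cells in the differences was not tested. In bulk RNA, more cells of a type and more RNA per cell cannot be told apart.

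**Figure D1:**
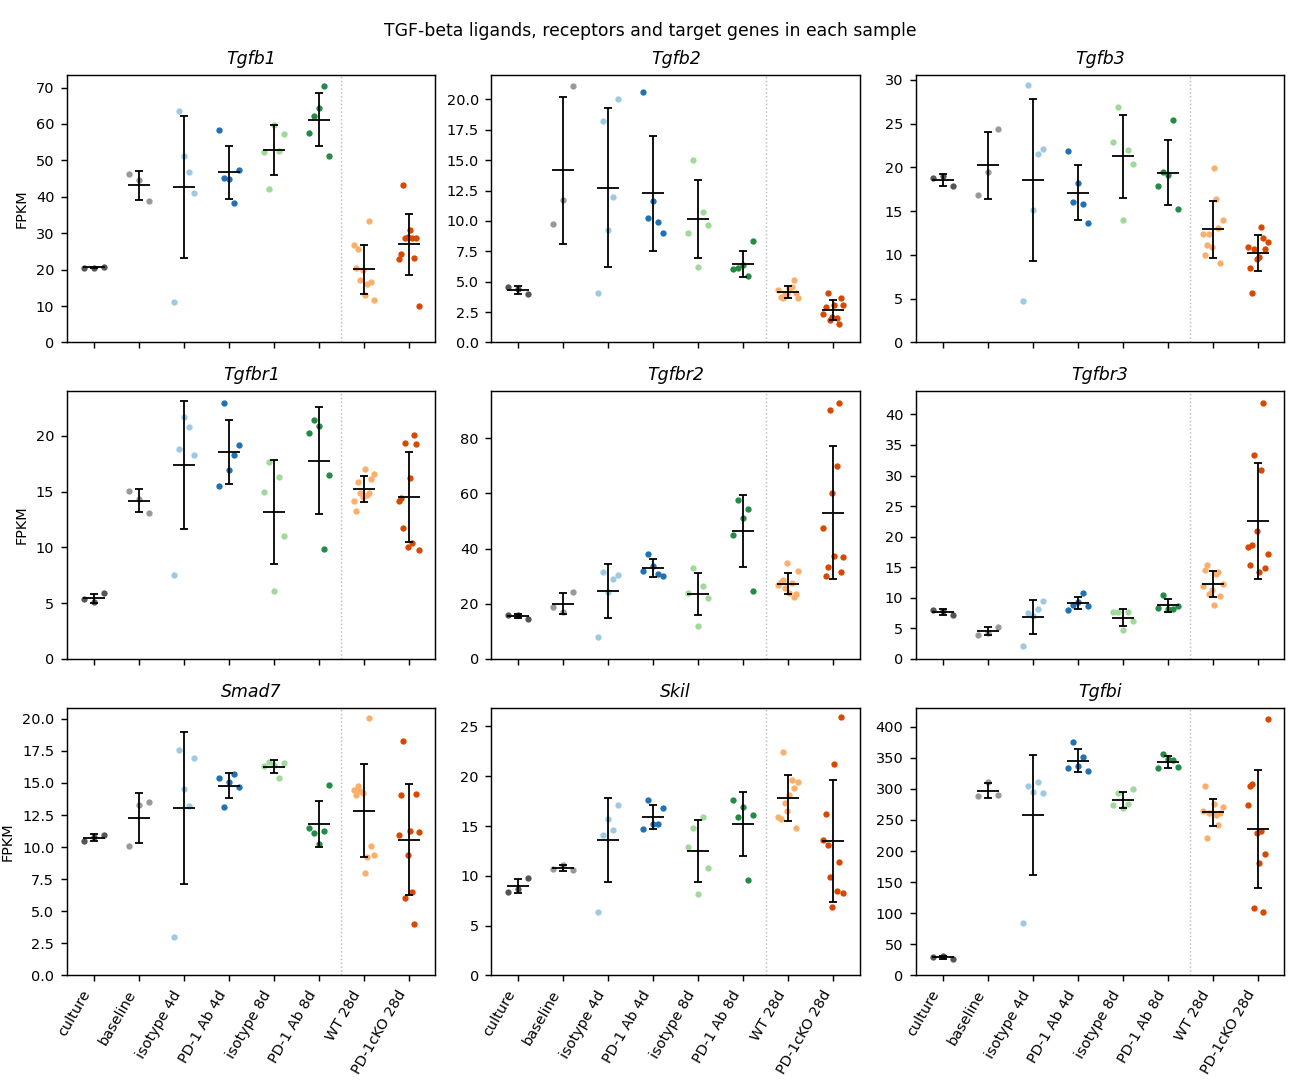
FPKM as deposited (linear axes from 0) of the 9 genes in each sample, by group, with points for samples and bars for mean ± SD. Tgfbi lies between 27.1 and 31.2 in the 3 cultures and above 80 in every tumor, and the dotted line parts the antibody study from the tamoxifen study, whose levels are on another footing.

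Baseline tumors were also compared with isotype control tumors of day 8, which differ from them in both time and 2 doses of isotype antibody, so that the effects of time and of the isotype antibody cannot be told apart. None of the 9 genes was called, against 0.628% of 14967 genes (94). At an unadjusted p under 0.05 there were 2647 of the 14967 genes. Of the 9 there were 3, Tgfb1 (log2 fold change of baseline against isotype control -0.28), Tgfbr3 (-0.56) and Smad7 (-0.42). Smad7 in the 3 baseline tumors (10.1, 13.3 and 13.5 FPKM) lay below all 5 isotype control tumors (15.4 to 16.7), with a limma-adjusted p of 0.09902.

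At day 4, the early effect of 1 dose of PD-1 Ab was compared with isotype control. No gene of the 9 was called, and 0 of 14556 genes were called in all (0%), with 895 at an unadjusted p under 0.05 and none of the 9 among them. Tgfbi held 334, 375, 337, 351 and 329 FPKM in the PD-1 Ab-treated tumors and 84.8, 305, 296, 311 and 293 in the isotype control tumors. While the share of all genes without overlap was not counted, the groups of Tgfbi did not overlap, also when the isotype control tumor at 84.8, the mitochondrial library, is set aside. Its log2 fold change was 0.56 (SE 0.33, adjusted p by limma 0.8252), and without that library 0.19. With samples scaled by median of ratios and without that library it was 0.22 (SE 0.06, adjusted p by limma 0.08426). Tgfbr2 was at 32.8 FPKM ± 3.27 under PD-1 Ab and 24.7 ± 9.76 under isotype control (0.56, SE 0.34), where 3 of 5 treated tumors were above every control. The directions of Tgfb1, Tgfb2, Tgfb3, Tgfbr1 and Smad7 turned from higher to lower without the mitochondrial library, so no direction is given for them. The median of all genes was 0.26 as deposited and 0.02 after scaling.

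At day 8 after 2 doses, no gene of the 9 was called, against 8.25% of 15062 genes. At an unadjusted p under 0.05 there were 5 of the 9, against 5977 of the 15062 genes, and the nearest to the threshold was Smad7. It held 11.5, 11.1, 10.2, 11.2 and 14.9 FPKM in PD-1 Ab-treated tumors and 16.3, 16.7, 16.4, 15.4 and 16.6 in isotype control tumors. All 5 treated tumors lay below all 5 controls (log2 fold change -0.47, SE 0.11, adjusted p by limma 0.01043).

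Tgfbr2 had the largest difference at day 8. It held 44.8, 57.6, 51.0, 54.3 and 24.7 FPKM under PD-1 Ab and 23.9, 33.0, 11.9, 26.3 and 22.1 under isotype control. In treated tumors 1 to 4 it was above every control, and tumor 5 lay within the control range (log2 fold change 1.00, interval 0.39 to 1.61, adjusted p by limma 0.0251). Treated tumor 5 also had the lowest sums of CD8 T cell markers (54.7 FPKM, against 118.7 to 171.9 in the other 4) and macrophage markers (1131, against 1937 to 2346). Without that tumor 2 genes were called, Tgfbr2 (1.21, adjusted p 0.003307) and Smad7 (-0.56, adjusted p 0.0007648).

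Tgfbi and Tgfbr3 were also separate between the groups at day 8, and how many of all genes were separate was not counted. Tgfbi ranged from 334 to 355 FPKM under PD-1 Ab and from 269.5 to 299.9 under isotype control (log2 fold change 0.28, SE 0.08, adjusted p by limma 0.02037). Tgfbr3 was between 8.14 and 10.5 FPKM under PD-1 Ab and between 4.67 and 7.72 under isotype control (0.39, SE 0.16, adjusted p 0.08673). The ligand Tgfb2 was lower in value, at 6.46 FPKM ± 1.10 against 10.1 ± 3.20 (SD, n = 5 each), with 3 of 5 treated tumors below every control (-0.60, SE 0.21, adjusted p 0.05214). Tgfb1 (61.2 ± 7.29 against 52.8 ± 6.77), Tgfb3 (19.4 ± 3.74 against 21.3 ± 4.70), Tgfbr1 (17.8 ± 4.83 against 13.2 ± 4.67) and Skil (15.2 ± 3.22 against 12.5 ± 3.11) differed by less than 2 SE.

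Of the pathway lists, 7 genes of 35 tested were called as higher under PD-1 Ab at day 8 and none as lower, against 6.69% of all genes called as higher. They were 3 of 10 storage genes (Ltbp2 at 1.60, Thbs1, which activates latent TGF-beta, at 1.46 and Nrros at 1.30 on the log2 scale), 2 of 13 signaling genes (Acvrl1 at 1.505 and Eng at 1.11) and 2 of 12 targets (Itgae, the alpha E integrin of tissue-resident T cells, at 1.43, and Acta2 at 1.14). With samples scaled by median of ratios the lists gave 3, 2 and 1 higher, with 1 target gene called in place of 2. The medians of the 3 lists were 0.27, -0.10 and -0.05, beside -0.04 for all genes. In the same tumors 6 of 6 CD8 T cell markers, 5 of 6 macrophage markers, 1 of 5 endothelial markers and 0 of 6 fibroblast markers were called as higher, as were Pf4 of the platelet, Plin1 of the adipocyte and Acta1 of the skeletal muscle list and Il2ra of the regulatory T cell list, while the neutrophil marker S100a8 was called as lower. CD8 T cell markers summed to 54.7 to 171.9 FPKM under PD-1 Ab and 7.30 to 21.5 under isotype control, macrophage markers to 1131 to 2346 and 605 to 964, and fibroblast markers to 637.5 to 1175 and 471 to 1136. Platelet markers summed to 27.6 to 61.4 FPKM under PD-1 Ab and 15.2 to 22.7 under isotype control, and endothelial markers to 22.4 to 82.7 and 18.1 to 22.1, with no overlap of the groups in either. Adipocyte markers summed to 66.5 to 120.6 FPKM in treated tumors 1 to 4, 5.05 in tumor 5 and 1.36 to 15.1 under isotype control. Their part in the values of the TGF-beta genes was not tested.

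**Figure D2:**
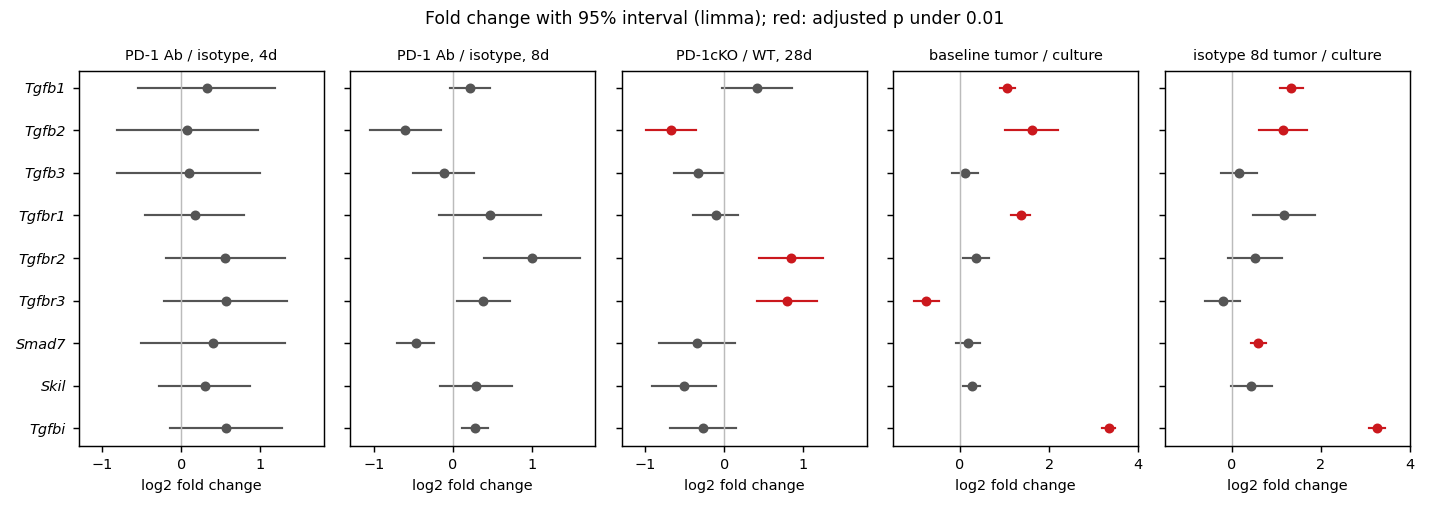
Log2 fold changes of the 9 genes (points) with 95% intervals (lines) in 5 comparisons, of FPKM + 0.1, with genes at an adjusted p under 0.01 in red. The antibody panels hold no red point, the PD-1cKO panel holds 3, and the panels against culture have a wider axis.

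In the tamoxifen study, tumors labelled PD-1cKO were compared with WT tumors, and 3 of the 9 genes were called. Tgfbr2 and Tgfbr3 were higher and Tgfb2 was lower, and the background was 8.78% of 15075 genes called as higher and 12.6% as lower (21.3% in either direction). On values as deposited and with a 2-fold limit as well, none of the 9 was called, against 8.07% of all genes. Short noncoding RNAs held a median 54.0% of the FPKM in tumors labelled PD-1cKO and 45.3% in WT tumors. The median log2 fold change of all genes was -0.20 as deposited and -0.05 with samples scaled by median of ratios. With that scaling Tgfbr2 was at 1.002 (adjusted p by limma 0.003233), just past 2-fold, Tgfbr3 at 0.95 (0.002617) and Tgfb2 at -0.52 (0.004151).

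Tgfbr2 ranged from 30.2 to 92.9 FPKM (median 42.3) in tumors labelled PD-1cKO and from 22.6 to 34.6 (median 27.2) in WT tumors. Of the 10 tumors labelled PD-1cKO, 7 were above every WT tumor, while the other 3 lay within the WT range. The log2 fold change was 0.84 (SE 0.20, adjusted p by limma 0.003415), a 1.79-fold difference. Tgfbr3 ranged from 14.3 to 41.8 FPKM (median 18.5) under the deletion label and from 8.87 to 15.3 (median 12.1) in WT tumors, and 7 of 10 were again above every WT tumor (0.79, SE 0.18, adjusted p 0.003155). Tumors 4, 7 and 8 of the PD-1cKO group were the 3 highest for both receptors, with 90.1, 70.1 and 92.9 FPKM of Tgfbr2 and 33.4, 30.9 and 41.8 of Tgfbr3. The third receptor, Tgfbr1, was at 14.5 FPKM ± 4.04 and 15.2 ± 1.16 (SD, n = 10 each) and was not called.

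Tgfb2 ranged from 1.56 to 4.07 FPKM (median 2.60) under the deletion label and from 3.64 to 5.18 (median 4.05) in WT tumors. In 8 of 10 tumors labelled PD-1cKO it was below every WT tumor (log2 fold change -0.68, SE 0.15, adjusted p by limma 0.002785). Tgfb1 was at 26.9 FPKM ± 8.30 and 20.1 ± 6.76 (0.41, SE 0.21, adjusted p 0.1189) and Tgfb3 at 10.3 ± 2.06 and 12.9 ± 3.24 (-0.33, SE 0.15, adjusted p 0.07765).

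The targets were not called, and their spread was wider under the deletion label. Skil was at 13.5 FPKM ± 6.10 against 17.8 ± 2.30 in WT tumors, at a log2 fold change of -0.51 (SE 0.19, adjusted p by limma 0.03684, and 0.004802 without PD-1cKO tumor 9), Smad7 at 10.6 ± 4.31 against 12.8 ± 3.65 and Tgfbi at 235 ± 94.8 against 262 ± 21.8. Tgfbi in tumors labelled PD-1cKO ran from 102.7 to 411.5 FPKM, with 4 tumors below and 2 above the whole WT range of 220.4 to 305.3.

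The label and the runs of sample identifiers are only partly separable. The identifiers fall into 3 runs, of which A holds 7 PD-1cKO tumors, B holds 1 PD-1cKO and 9 WT tumors, and C holds 2 PD-1cKO tumors and 1 WT tumor, and what a run stands for is not given by the labels. In run B the PD-1cKO tumor had 92.9 FPKM of Tgfbr2 against 22.6 to 34.6 in the WT tumors, 41.8 of Tgfbr3 against 8.87 to 15.3, and 1.56 of Tgfb2 against 3.64 to 5.18. It was PD-1cKO tumor 8, with the highest short noncoding share of its group (66.5%). Without tumor 8, the fit without runs gave 0.74 for Tgfbr2, 0.68 for Tgfbr3 and -0.60 for Tgfb2. These were the smallest differences with any 1 sample left out. In run C the PD-1cKO tumors had 31.4 and 37.0 FPKM of Tgfbr2 around a WT value of 31.9, 14.9 and 17.1 of Tgfbr3 against 12.3, and 3.66 and 3.07 of Tgfb2 around 3.65. With the runs as a covariate in limma no gene of the 9 and none of all genes was called, with 6533 genes at an unadjusted p under 0.05. The log2 fold changes in that fit were 1.08 for Tgfbr2 (SE 0.35, adjusted p by limma 0.0349), 1.18 for Tgfbr3 (SE 0.31, adjusted p 0.02571) and -0.84 for Tgfb2 (SE 0.28, adjusted p 0.03505). Run A holds no WT tumor, so these values rest on the tumors of runs B and C, tumor 8 among them.

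**Figure D3:**
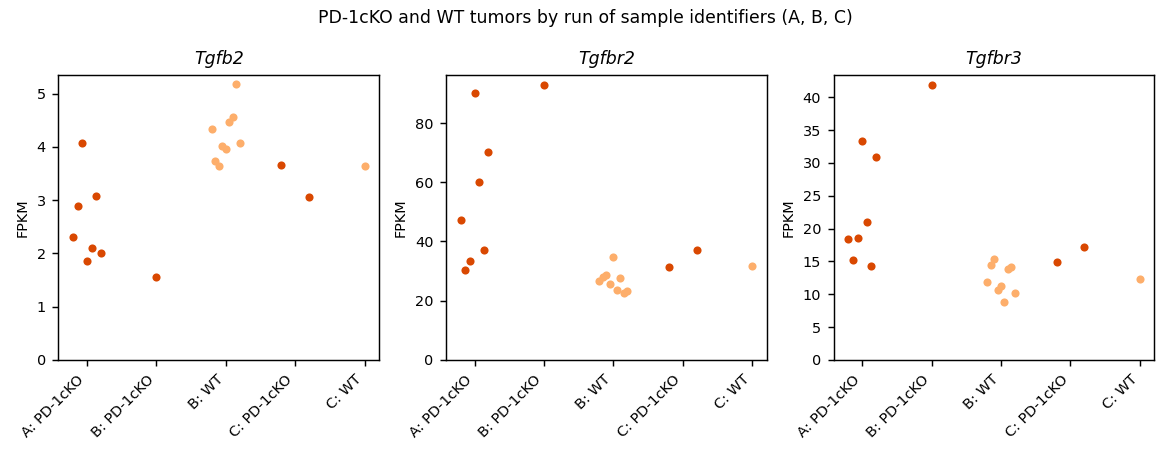
FPKM as deposited of Tgfb2, Tgfbr2 and Tgfbr3 in the tumors of the tamoxifen study, by run of sample identifiers and label, with 1 point per tumor. Run B has 1 tumor labelled PD-1cKO, which lies outside the 9 WT tumors for each gene, and in run C the labels lie close together for Tgfb2 and Tgfbr2.

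Among the pathway lists, 8 genes of 35 tested were higher and 2 lower under the deletion label, beside 8.78% of all genes higher and 12.6% lower. Signaling genes gave 4 higher and 2 lower of 13, with Eng at 0.87, Acvrl1 at 0.83 and Smad2, a receptor-activated Smad, at -0.69 on the log2 scale. Storage genes gave 2 higher of 10, Lrrc32 (1.19) and Nrros (0.86), and targets 2 higher of 12, Col1a1 (1.68) and Acta2 (0.53). The medians were 0.30 for storage, -0.32 for signaling and 0.08 for targets, beside -0.20 for all genes. With samples scaled by median of ratios the split of all calls moved from 1323 higher and 1894 lower to 1841 and 1640, and the lists gave 3, 4 and 2 higher and 0, 2 and 0 lower. With the runs as a covariate none of these list genes was called in limma, with 5, 7 and 3 of them at an unadjusted p under 0.05.

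Markers of some host cells were called as higher under the deletion label, beside 8.78% of all genes. None was called in the regulatory T cell, adipocyte, skeletal muscle, keratinocyte or carcinoma lists. CD8 T cell markers were called as higher in 6 of 6 (sum 32.4 to 99.5 FPKM against 9.59 to 44.9 in WT tumors), macrophage markers in 4 of 6 (1009 to 3452 against 713 to 1243), neutrophil markers in 3 of 4, platelet markers in both of those tested (of 4), endothelial markers in 1 of 5 and fibroblast markers in 2 of 6, Lum and Col3a1 (1048 to 5725 against 579 to 1181). Tumors 4, 7 and 8, highest for Tgfbr2 and Tgfbr3, also had the 3 highest fibroblast marker sums of their group, 5725, 4184 and 5037 FPKM. The same 3 tumors were likewise the highest for the sums of macrophage markers (3452, 2714 and 2886 FPKM, next 2216), neutrophil markers (80.9, 367.7 and 72.5, next 10.9) and endothelial markers (72.6, 68.9 and 62.0, next 59.55), so these lists cannot be told apart in them. Across all 43 tumors, with values scaled by median of ratios and centred on each group's mean, Tgfbr2 correlated with the summed fibroblast markers at r = 0.91 (Spearman rho 0.88), and at 0.86 over 41 tumors without the 2 farthest marker values. It was 0.72 in the antibody study and 0.97 in the tamoxifen study. For Tgfbr3 these values were r = 0.82 (rho 0.66), 0.72 without the 2 tumors, 0.47 and 0.90. Other lists were correlated too, and Tgfbr2 had r = 0.80 with endothelial markers (0.69 and 0.88 in the antibody and the tamoxifen study), 0.68 with macrophage markers (0.13 and 0.92) and 0.51 with neutrophil markers (0.0019 and 0.69). Tgfbr3 had 0.63 with endothelial (0.36 and 0.77), 0.59 with macrophage (-0.20 and 0.84) and 0.56 with neutrophil markers (0.12 and 0.68). Its sign with macrophage markers thus differed between the studies. Over all 43 tumors, r with Tgfbr2 and Tgfbr3 was 0.55 and 0.56 for adipocyte and 0.47 and 0.51 for regulatory T cell markers. It was 0.46 and 0.41 for platelet, 0.43 and 0.35 for CD8 T cell and 0.39 and 0.40 for carcinoma markers. Skeletal muscle (-0.21 and -0.20) and keratinocyte markers (-0.24 and -0.18) went the other way. For Tgfb2 the 2 studies gave opposite signs with fibroblast (0.78 and -0.58), endothelial (0.10 and -0.71) and neutrophil markers (0.42 and -0.57). They gave the same sign with CD8 T cell (-0.62 and -0.69), macrophage (-0.55 and -0.44) and platelet markers (-0.010 and -0.34). Tumors of a study may share library preparation, which the labels do not give, and composition. These correlations are descriptions of tumors, and the part of any of these cells in the difference was not tested.

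**Figure D4:**
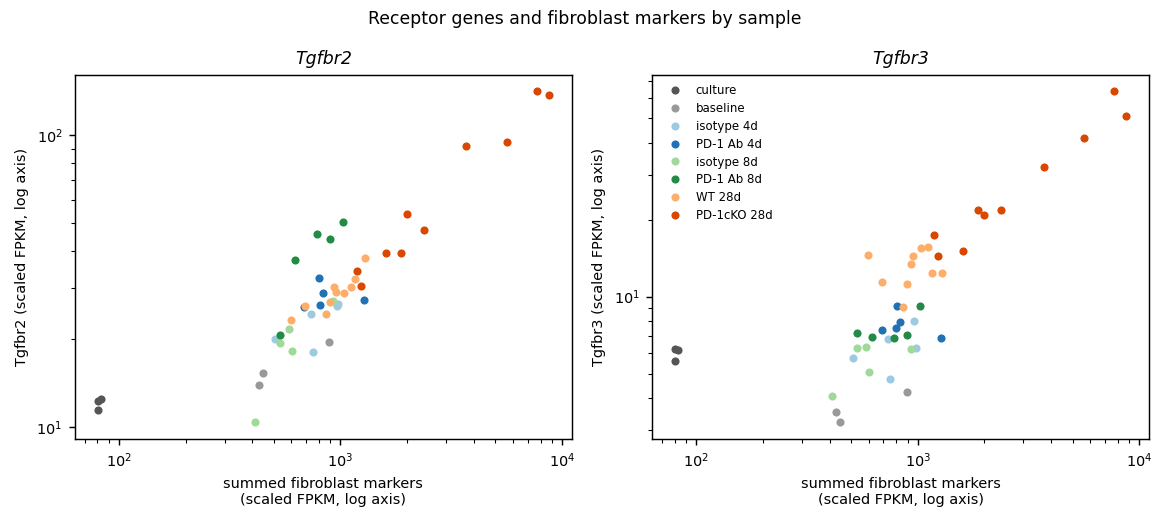
Tgfbr2 and Tgfbr3 against the sum of 6 fibroblast markers in each of the 46 samples, in FPKM scaled by median of ratios, on log axes, colored by group. Tumors labelled PD-1cKO extend to the upper right in both panels, and the 3 cultures lie at the left with fewer marker transcripts.

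The share of each ligand in the summed FPKM of the 3 does not depend on a scale factor common to a sample's genes. Whether the 3 ligands were recovered alike in the libraries of both studies was not tested, so shares are compared within a study. Tgfb1 made up 47.4% ± 1.23 of the summed ligand FPKM in culture (SD, n = 3), beside 42.7% ± 0.75 for Tgfb3 and 9.93% ± 0.52 for Tgfb2. Tgfb1 was the largest share in the mean of each tumor group, with 56.1% ± 9.02 at baseline, 62.8% ± 8.84 in isotype control and 70.2% ± 1.23 in PD-1 Ab-treated tumors of day 8, and, in the tamoxifen study, 53.2% ± 10.5 in WT tumors and 66.0% ± 10.4 in tumors labelled PD-1cKO. In this share the 2 groups of day 8 overlap, as do WT and PD-1cKO tumors. The share of Tgfb2 was 12% ± 3.72 in isotype control and 7.60% ± 2.14 in PD-1 Ab-treated tumors of day 8, and 11.4% ± 1.41 in WT and 6.88% ± 2.53 in tumors labelled PD-1cKO. The ratio of Tgfbr2 to Tgfbr1 was 1.81 ± 0.19 in isotype control tumors of day 8 and 2.86 ± 1.53 in PD-1 Ab-treated tumors (range 1.498 to 5.48), and 1.805 ± 0.304 in WT and 3.80 ± 1.70 in tumors labelled PD-1cKO (range 1.63 to 6.75). These shares and ratios are given without a test.

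**Figure D5:**
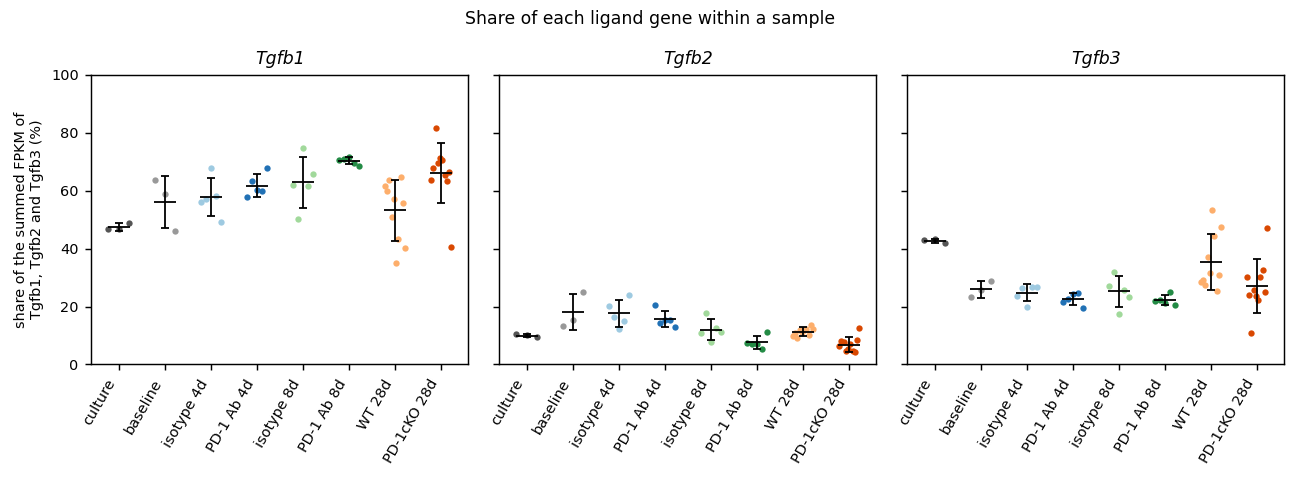
Share of Tgfb1, Tgfb2 and Tgfb3 in their summed FPKM within each sample (percent, axis from 0 to 100), with points for samples and bars for mean ± SD. Tgfb3 has 42.7% in culture and 22.2% to 26.0% in the tumor group means of the antibody study.

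The effects of antibody and of the deletion label were compared by testing their difference. The tumors were taken at unlike times, day 8 after the first dose and day 28 after implant by the labels. For 9 of 9 genes the difference between day 8 and the deletion label was not called, against 0.0975% of 16404 genes. Tgfb2 had log2 fold changes of -0.60 and -0.68 (difference 0.08, interval -0.46 to 0.62), and Tgfbr2 of 1.00 and 0.84 (0.16, interval -0.57 to 0.88), and such intervals leave room for differences in either direction. Skil was at 0.29 under antibody and -0.51 under the deletion label (0.80, SE 0.32, adjusted p by limma 0.2375). It was the only one of the 9 at an unadjusted p under 0.05, against 2585 of the 16404 genes. Between day 8 and day 4 of antibody none of the 9 and none of 15289 genes (0%) was called, with 1182 genes and none of the 9 at an unadjusted p under 0.05.

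The genes whose levels followed each member most closely were found over the 43 tumors, with values scaled by median of ratios and centred on group means. For Tgfbr2 they were Adam12 (r = 0.92, rho 0.87), Mxd4 (0.92, 0.88) and Thbs2 (0.91, 0.88), and for Tgfbr3 Acox3 (0.90, 0.83), Tbc1d2b (0.89, 0.80) and Timp2 (0.89, 0.77). For Tgfbr1 they were Kdm6a (0.91, 0.84), Tlr4 (0.88, 0.83) and Sppl2a (0.88, 0.80), and for Skil Prpf4b (0.92, 0.86), Med13 (0.92, 0.85) and Rbm26 (0.92, 0.86). Tgfb1 was followed by Slc35c1 (0.90, 0.90), Ubald1 (0.90, 0.90) and Arl8a (0.88, 0.83), Tgfb2 by Robo1 (0.83, 0.82), Enpp2 (0.80, 0.77) and Stra6 (0.78, 0.695), and Tgfb3 by Nid2 (0.81, 0.83), Lrig3 (0.81, 0.77) and H19 (0.78, 0.76). The likeness of H19 to Tgfb3 was 0.60 on values as deposited, and 0.55 in the antibody study against 0.91 in the tamoxifen study. Smad7 was followed by Bahcc1 (0.86, 0.76), Ano6 (0.85, 0.68) and Prag1 (0.82, 0.72), and Tgfbi by Rpn2 (0.90, 0.74) and Ndufv1 (0.89, 0.69), for which r was 0.53 and 0.43 within the antibody study. Without the 2 tumors farthest from the member's median, r stayed between 0.73 and 0.90 for these genes. Among the members themselves, Tgfbr2 and Tgfbr3 were closest (r = 0.84, rho 0.74), and Tgfbr1 and Skil had r = 0.91 in the antibody study and 0.35 in the tamoxifen study.

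In the genome (GRCm38) the members lie apart, with Smad7 on chromosome 18, Tgfb1 at chr7:25687002-25705077, Tgfb2 at chr1:186622792-186705989, Tgfb3 at chr12:86056745-86079041, Tgfbr1 at chr4:47353222-47414931, Tgfbr2 at chr9:116084293-116175360, Tgfbr3 at chr5:107106570-107289629, Skil at chr3:31095058-31122577 and Tgfbi at chr13:56609523-56639562. Genes annotated on the opposite strand overlap 12.4% of the exon bases of Tgfb3 and 2.14% of those of Tgfb2, and a gene on the same strand overlaps 4.54% of those of Tgfbr3. Of 50-base stretches, 3.85% of those of Tgfbr3 occur in another gene, so its values carry more uncertainty from shared reads than those of the other members.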

How the data were processed

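RNA-seq of 3 cultures and 43 tumors was used. The authors aligned paired reads of 50 bases from rRNA-depleted stranded libraries with OSA in Omicsoft Array Studio to the mouse B38 genome with Ensembl gene models, and deposited 1 table of FPKM values per gene and sample, with no counts. Samples were grouped by their labels. The members and gene lists were chosen with earlier results of these data known. log2(FPKM + 0.1) was fitted with limma 3.58.1 (R 4.3.3, trended variance), for genes whose mean reached 0.5 FPKM in 1 or both groups of a comparison, and p-values were adjusted by Benjamini-Hochberg over all genes tested (two-sided). Each effect comparison was an interaction contrast in 1 fit of its 4 groups. The fit was tested on simulated data. Named beside the 9 members were up to 3 called genes per pathway list with the largest changes and the 3 genes most like each member (1 of them is not reported here), while Pdcd1 was named as the targeted gene and marker genes where they check a label. Alternatives were the value added, filters, scalings, variance trend, replicate block, identifier runs, a 2-fold limit, a joint fit and leaving out each sample. Promoters came from RefSeq on GRCm38.p6, and coordinates from GENCODE M21.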

Additional observations from a re-analysis of the deposited data

Results flagged for a closer look

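Of 54 combinations of a TGF-beta gene and a group of 4 to 10 samples, 8 held 1 sample far from the others of its group by Dixon's test, which chance flags in about 1 of 20. Isotype control tumor 1 at day 4, the library with 54.6% of its FPKM in mitochondrial genes, gave 3 of them, with Tgfbr1 at 7.51 FPKM (18.3 to 21.7 in the other 4 tumors), Skil at 6.36 (14.1 to 17.1) and Tgfbi at 84.8 (293 to 311). In PD-1 Ab-treated tumors of day 4, Tgfb2 was at 20.6 FPKM in tumor 1 and at 8.98 to 11.6 in the others. In PD-1 Ab-treated tumors of day 8, Tgfbr3 was at 10.5 FPKM in tumor 2 (8.14 to 8.62 in the others), Skil at 9.59 in tumor 4 (15.95 to 17.6) and Smad7 at 14.85 in tumor 5 (10.2 to 11.5), the tumor with the lowest CD8 T cell and macrophage marker sums of its group. In isotype control tumors of day 8, Smad7 was at 15.35 FPKM in tumor 4 and at 16.3 to 16.7 in the others.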

How the results depend on the processing

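Of 1674 log2 fold changes of single genes recomputed under an alternative, 1584 kept their direction and their side of the threshold, 19 were no longer called, 11 became called and 60 turned sign, none of which had been called. The number of the 9 genes called at day 8 of antibody was 1 (Smad7) with a filter at 1 FPKM and 1 (Smad7) with upper-quartile scaling, and 0 to 2 with 1 sample left out, where the 2 came without PD-1 Ab-treated tumor 5. Under the deletion label it was 0 with a 2-fold limit, 0 with identifier runs as a covariate, 0 with these runs and median-of-ratios scaling together, an alternative chosen after seeing the data, and 3 to 4 with 1 sample left out. Isotype control tumors of day 8 against culture gave 3 to 7 with 1 sample left out, and baseline tumors against culture 4 to 6. With 1 sample left out, the filter at 1 FPKM or upper-quartile scaling, the share of all genes called was not counted. Tgfbr1 of isotype control tumors against culture was also called with median-of-ratios (1.24) and upper-quartile scaling (1.21).

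Samples with the same replicate number did not deviate together (correlations from -0.15 to 0.14 at day 4, -0.22 to 0.04 at day 8 and -0.19 to 0.10 under the deletion label), so the numbers name samples only. With a replicate block, 2 of the 9 genes were called in isotype control tumors against culture, where Tgfb2 (adjusted p by limma 0.01732) and Smad7 (0.01609) were lost, and Tgfb2 was lost under the deletion label (0.01325).

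The values that turned sign follow as log2 fold changes. At day 4 of antibody, median-of-ratios and upper-quartile scaling gave -0.17 and -0.19 for Tgfb2, -0.16 and -0.18 for Tgfb3, and -0.082 and -0.10 for Tgfbr1. Median-of-ratios scaling without the mitochondrial library, chosen after seeing the data, gave -0.081 for Tgfb1, -0.25 for Tgfb2, -0.31 for Tgfb3, -0.080 for Tgfbr1 and -0.038 for Smad7. Leaving out 1 sample gave -0.11 to 0.52 for Tgfb1, -0.28 to 0.29 for Tgfb2, -0.34 to 0.31 for Tgfb3, -0.11 to 0.27 for Tgfbr1 and -0.066 to 0.56 for Smad7, each lowest without the mitochondrial library.

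Under the deletion label, Tgfbr1 was at 0.048 with median-of-ratios, 0.060 with upper-quartile scaling, 0.12 with identifier runs and 0.33 with runs and median-of-ratios scaling, which put Tgfb3 at 0.033. With 1 sample left out, Tgfb3 ranged from -0.033 to 0.23 in baseline tumors against culture, and against isotype control tumors Tgfb3 ranged from -0.20 to 0.068 and Tgfbr1 from -0.060 to 0.32.

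For the antibody effect at day 8 minus that at day 4, the values with median-of-ratios scaling, upper-quartile scaling and median-of-ratios scaling without the mitochondrial library were 0.17, 0.10 and 0.30 for Tgfb1, 0.090, 0.025 and 0.18 for Tgfbr3, and 0.26, 0.20 and 0.22 for Skil. Tgfb3 was at 0.061 and 0.20 in the first and the last of these, and Tgfbi at 0.069 in the last. With 1 sample left out the ranges were -0.30 to 0.32 for Tgfb1, -0.43 to 0.22 for Tgfb3, -0.33 to 0.20 for Tgfbr3, -0.15 to 0.24 for Skil and -0.38 to 0.090 for Tgfbi. For the effect at day 8 minus that of the deletion label, Tgfb2 was at -0.018 with 1 FPKM added and at -0.13 and -0.18 with median-of-ratios and upper-quartile scaling, Tgfb3 at -0.0048 and -0.057 and Tgfbr2 at -0.060 and -0.11 with these scalings, and with 1 sample left out Tgfb2 ranged from -0.081 to 0.23 and Tgfbr2 from -0.067 to 0.37. The cause of these changes was not tested. The paper gives mapped reads only as a range over all samples, so the depth of each library is unknown.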
